A study of Homo sapiens with 8 samples.

Results

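The genomic windows described here had SON TSA-seq signal at or above a set minimum in 786-O cells after 3 h of 2 µM PT2399. In cells on DMSO vehicle these windows had none above its floor. They were chosen from these same values, in the authors' deposited tables of 100 kb windows on chromosomes 1 to 22, by a log2 concentration of at least 6 with PT2399 and below 0 with DMSO. The rule took 809 of 259029 windows, or 0.491% of the 164654 windows that lay below 0 with DMSO, and they are called gained windows. Since windows of the 9 sets overlap, the 809 windows were merged into 329 gained regions. The mirror image of the rule, PT2399 below 0 and DMSO at 6 or more, took 790 windows in 354 regions, which are called lost and serve as the comparison. Because the choice used the contrast itself, the levels of gained windows are a description and are not tested.

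The PT2399 group holds 2 SON pulldown and 2 input libraries from 786-O cells kept for 3 h in 2 µM of the compound, which keeps the transcription factor HIF-2α from pairing with ARNT. The DMSO group holds 2 SON pulldown and 2 input libraries from 786-O cells given the same volume of vehicle. 786-O is an established human clear cell renal carcinoma line, known to lack functional VHL, so that HIF-2α is stable in both groups without low oxygen. In 4 of the 8 libraries the title disagreed with the antibody or treatment field, and the titles were followed, so every direction below rests on them and on the column names control and treatment.

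Nuclear speckles are bodies rich in splicing factors and built around the scaffold proteins SON and SRRM2, and gene-dense, active chromatin tends to lie close to them. TSA-seq lets an antibody-bound peroxidase spread tyramide-biotin from SON into the surrounding chromatin, so that DNA pulled down through biotin reports closeness to speckles. Chromatin at the nuclear lamina, gene-poor and mostly silent, is far from speckles and gives little SON signal. Windows at the floor are those with the lowest value of a treatment, and how that value arises is not given in the sources used. A window that leaves the floor enters the low end of the measured range.

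The floor was a single value in each treatment, -0.11 with PT2399 and -0.07 with DMSO on the log2 concentration scale, and all 809 gained windows stood at exactly that value with DMSO. A fold against the floor has no meaning as a size, so levels are given in place of folds. The tables hold 1 value per treatment and window, made by the authors from their libraries, so no spread between replicates and no depth per library could be computed, and how many of the 2 PT2399 libraries carried the signal of a gained window is unknown. The authors' FDR is the only measure of error. Whether the 2 replicates were separate cultures is not stated, so the FDR may cover technical spread only. Gene positions on hg19, the build of the files, were not used here, and regions are named by their coordinates.

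Gained windows took up low levels of SON signal with PT2399. Their PT2399 concentration ran from 6 to 7.99 with a median of 6.43 and quartiles of 6.19 and 6.77, and 450 of the 809 lay below 6.5. The lost windows had a DMSO concentration from 6 to 8.52 with a median of 6.39. Among all autosomal windows at 2 or more in both treatments the median was 8.56 with PT2399 and 8.66 with DMSO. The median gained window thus stood at or above only 22.6% of all windows at 2 or more with PT2399, and 0 windows went as far as 9 from the DMSO floor. Summed as linear concentrations, the gained windows made up 0.14% of the PT2399 signal of all autosomal windows, and the lost windows 0.127% of the DMSO signal.

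Leaving the floor was rare, and windows that fell to it were nearly equal in number. Of the windows below 0 with DMSO, 95.7% were also below 0 with PT2399, and a further 6192 had PT2399 levels from 0 to below 6, short of the rule. On the mirrored side, 5305 windows below 0 with PT2399 had DMSO levels from 0 to below 6. Gained windows were 0.491% of the DMSO floor and lost windows 0.482% of the PT2399 floor. Of the windows that crossed in either direction under the rule, 50.6% were gained. The levels run smoothly through the threshold, with 109 windows of DMSO below 0 less than 0.1 above it and 102 within 0.1 below it. Just inside it lay windows on chromosome 1 at 162280001 to 162380000 and 247450001 to 247550000 and on chromosome 10 at 118360001 to 118460000, all at 6 with PT2399. Just outside it lay windows on chromosome 10 at 31820001 to 31920000 and 50180001 to 50280000 and on chromosome 2 at 43750001 to 43850000, all at 5.99.

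Of the 809 gained windows, 280 (34.6%) had an FDR of at most 0.01 in the authors' deposited tables, in 132 of the 329 regions. Over all autosomal 100 kb windows, 0.147% were called higher with PT2399 at that threshold, which is 382 windows, so the gained windows hold 73.3% of all higher calls. The deposited p-values and FDRs imply an adjustment over 11753 to 11765 windows in each set, fewer than its 28781 autosomal windows. Shares of all windows therefore count many that seem not to have entered the adjustment. The rule selects on the contrast that the FDR tests, so nothing is read from the excess over the background. Of the lost windows 265 (33.5%) had an FDR of at most 0.01, against 0.653% of autosomal windows called lower, and these were 15.7% of all lower calls. The FDR of gained windows ran from 9.48e-08 to 0.114 with a median of 0.0235.

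The authors' p-value followed the PT2399 level along separate bands. A narrow band was defined as the windows with the largest p-values for their level, from a curve fitted below a level of 7. It took 229 gained windows (28.3%), and 10 windows lay in the gap just above it. At levels within 0.05 of 6.5, the 21 windows of the narrow band had a median p-value of 0.00342 in the authors' deposited tables and the 40 other windows a median of 0.000266. The narrow band held 0 of the 280 calls, while the other 580 gained windows held all 280, the lowest of them at a level of 6.46. Lost windows showed the same split, with 255 of 790 (32.3%) in the narrow band and 0 of their 265 calls there. The larger p-values, the lack of calls and the end of the band near 7 follow in part from its definition, which was made after the values were seen.

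**Figure D1:**
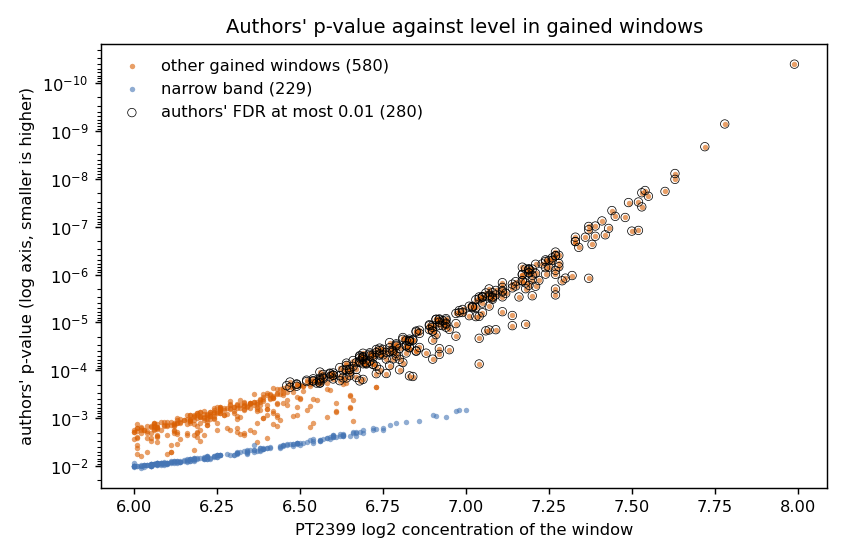
Authors' p-value (log axis, smaller values higher) against PT2399 log2 concentration for the 809 gained windows, 1 point per window, with the narrow band in blue, the other windows in orange and black rings around the 280 windows at an FDR of at most 0.01. The narrow band of 229 windows runs below the rest up to a level of 7 and carries no ring.

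Most gained regions were short and were seen at few placements of the window. A set places windows end to end, and the 9 sets shift them by 10 kb each. Regions ran from 100 to 270 kb with a median of 110 kb and covered 40.39 Mb, and 149 of the 329 (45.3%) rested on 1 window set. Another 70 regions had gained windows in 2 sets, 110 in at least 3 sets and 2 in all 9. At least 5 sets held windows of 44 gained regions (13.4%). Of the lost regions, 162 of 354 (45.8%) rested on 1 set, and 31 (8.76%) had windows in at least 5 sets. Gained regions with windows in 5 to 9 sets reached higher PT2399 levels, with a median maximum of 6.98, against 6.60 for 2 to 4 sets and 6.26 for 1 set. A region of higher level passes the minimum at more placements, so this order follows in part from the rule.

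The 2 regions seen in all 9 sets both lay on chromosome 10. The first, at 13470001 to 13740000, had 11 gained windows and, at 270 kb, shared the greatest length. Its best window, the one with the lowest FDR, stood at 7.52 with PT2399 and -0.07 with DMSO (FDR 2.11e-05 in the authors' deposited table), and 9 of its 11 windows had an FDR of at most 0.01. In the 100 kb beyond each end the median level was 8.22 and 7.28 with PT2399, against 8.07 and 6.99 with DMSO. The region thus lay between stretches that had signal in both treatments. It was not level throughout, since in a window over its left end PT2399 fell to 4.52 and DMSO stood at 3.52. Over its midpoint, PT2399 ran from 6.20 to 7.52 in the 9 windows and DMSO from -0.07 to 4.32, with 6 windows at the DMSO floor.

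The second, on chromosome 10 at 50210001 to 50410000, had 10 gained windows. Its best window stood at 7.01 with PT2399 and -0.07 with DMSO (FDR 0.00065 in the authors' deposited table). It was the only gained region of the 329 in which every window over the midpoint was gained, with PT2399 levels from 6.21 to 7.05 and DMSO at the floor in all 9. In the 100 kb beyond either end the median was at the floor in both treatments. DMSO signal still touched the region. Windows overlapping its left end stood at 3.85 and 4.61 with DMSO, and at 4.57 and 5.01 with PT2399. A 50 kb window touching it reached 5.17 with DMSO.

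Seen in 8 sets were regions on chromosomes 2, 7, 10 and 15. On chromosome 2, the region at 109470001 to 109700000 reached 7.78 with PT2399 in its best window (FDR 1.2e-06 in the authors' deposited table), and 7 of its 9 windows had an FDR of at most 0.01. It lay at the edge of a stretch with signal, with a median of 6.82 with PT2399 and 6.51 with DMSO after its end and the floor in both treatments before its start. On chromosome 7, the region at 156210001 to 156380000 reached 7.39 (FDR 7.77e-05), all 9 windows over its midpoint were at the DMSO floor, and PT2399 ran from 5.00 to 7.39 there. Before its start the median was at the floor in both treatments. After its end the change ran the other way, with a median of -0.11 with PT2399 and 4.93 with DMSO. On chromosome 10, the region at 14650001 to 14880000 had 10 gained windows and reached 7.38 (FDR 0.000106). On chromosome 15, the region at 38510001 to 38750000 had 12 gained windows, 7 of them at an FDR of at most 0.01, and reached 7.04 (FDR 0.000555), next to a stretch at 7.52 with PT2399 and 7.42 with DMSO.

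**Figure D2:**
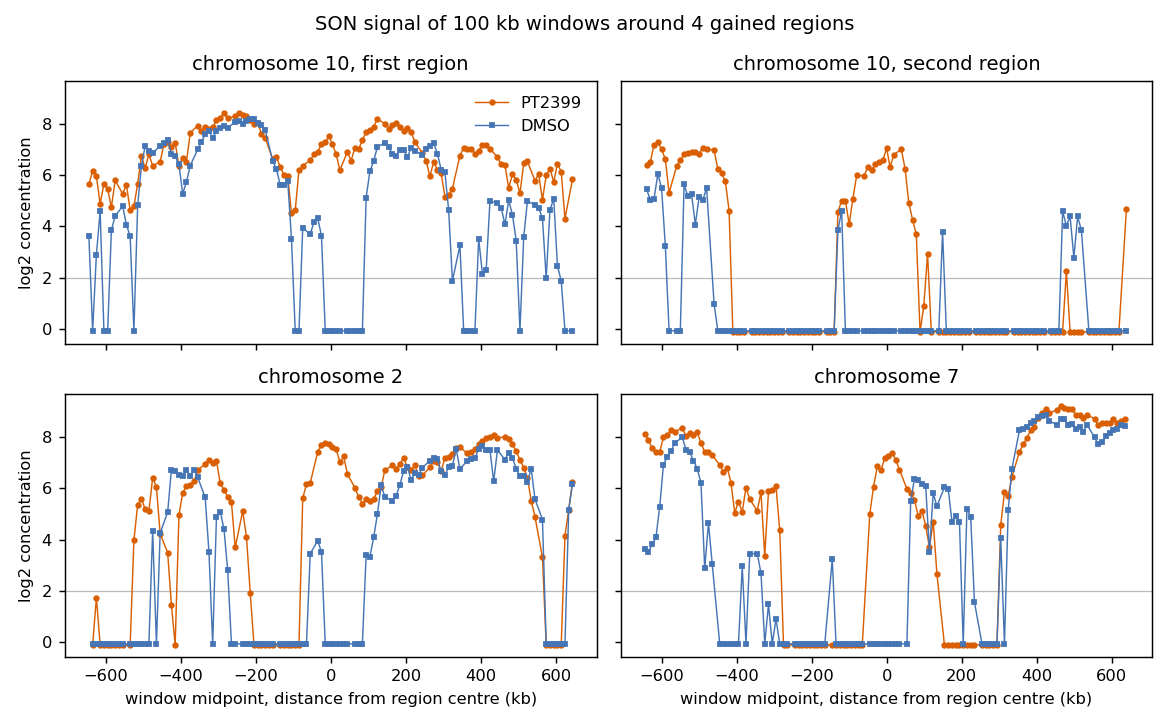
Log2 concentration of every 100 kb window (1 point per window, 9 sets together) against the distance of its midpoint from the region centre, with PT2399 in orange and DMSO in blue. The panels show the regions on chromosome 10 at 13470001 (first) and 50210001 (second), on chromosome 2 at 109470001 and on chromosome 7 at 156210001, and the grey line marks a level of 2. Around each centre PT2399 is above its floor in windows where DMSO is at -0.07, below 6 in some of them, and on either side both treatments also cross to and from the floor.

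Of the regions seen in 7 sets, 4 completed the 10 with most sets. They lay on chromosome 10 at 128930001 to 129110000, with 7.53 with PT2399 in the best window (FDR 1.44e-05), and on chromosome 7 at 92280001 to 92480000, with 7.41 (FDR 3.66e-05). The others lay on chromosome 8 at 103420001 to 103580000, with 7.21 (FDR 0.000189), and on chromosome 2 at 208500001 to 208670000, with 7.32 (FDR 0.000265), all in the authors' deposited tables. The chromosome 8 region was the nearest of the 10 to strong SON signal, 130 kb from a window of 9 or more in both treatments. The median in the 100 kb after its end was 7.86 with PT2399 and 8.13 with DMSO, and before its start 4.74 and 7.01. For the chromosome 2 and chromosome 7 regions, the median in the 100 kb beyond both ends was at the floor in both treatments. DMSO signal still reached into them, up to 6.69 and 5.34 in windows sharing at least 50 kb with the best window.

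Ranked by FDR, the first region was that of chromosome 2 at 11470001 to 11670000, and its best window had the highest PT2399 level of all gained windows, 7.99 with PT2399 and -0.07 with DMSO (FDR 9.48e-08 in the authors' deposited table). It had gained windows in 6 sets, and the median in the 100 kb before its start was at the floor in both treatments. Some regions of very low FDR rested on a single window. On chromosome 6 at 1380001 to 1480000, 1 window stood at 7.63 with PT2399 (FDR 5.37e-06), and the other windows over its midpoint had DMSO levels up to 6.08. On chromosome 10 at 78930001 to 79030000, 1 window stood at 7.55 (FDR 1.47e-05), and DMSO reached 7.12 in other windows over the midpoint. A low FDR and agreement between placements were therefore different properties of a region.

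The remaining regions among the 10 of lowest FDR lay on chromosome 10 at 123400001 to 123540000, with 7.63 with PT2399 in the best window (FDR 6.72e-06), and on chromosome 5. On chromosome 5 the region at 153680001 to 153820000 reached 7.49 (FDR 1.76e-05), and the regions at 174140001 to 174270000 and 71050001 to 71240000 reached 7.45 and 7.48 (FDR 3.56e-05 for each in the authors' deposited tables). These 4 regions had gained windows in 3 to 5 sets. The other 2 of the 3 longest regions lay on chromosome 9 at 37620001 to 37880000, with 7.37 (FDR 4.66e-05), and on chromosome 21 at 33780001 to 34050000. The chromosome 21 region reached only 6.39 (FDR 0.0168) and joined 3 gained windows over 270 kb, so length alone does not mark a strong region.

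Moving the window by 10 kb, which keeps 90% of its DNA, often lifted DMSO off the floor. Of the 1437 windows that lay 10 kb to either side of a gained window, 6 were below 0 with PT2399, while 398 (27.7%) were above 0 with DMSO, at a median level of 3.66 and up to 6.62. At a shift of 20 kb, 62.2% and 62.7% of windows on the left and right were still at the DMSO floor, and at 50 kb 44.6% and 44.4%. The share that met the rule itself was 49.8% and 49.9% at 10 kb and 12.1% on both sides at 50 kb. The median PT2399 level was 6.40 and 6.37 at 10 kb and 5.99 and 6.08 at 50 kb, and at 50 kb 15.1% and 13.5% of windows were below 0 with PT2399. The rule set DMSO at its floor and PT2399 far above its own, so this contrast follows in part from the choice.

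In 299 of the 329 regions (90.9%), DMSO reached 2 or more in some window that shared at least 50 kb with the best gained window, and the median over all regions of the highest such DMSO level was 5.89. In 27 regions, DMSO was at the floor in every such window. These 27 lay on 15 chromosomes, 4 of them on chromosome 10, and 6 held a window at an FDR of at most 0.01. Their median highest PT2399 level was 6.26, and 12 of them rested on 1 set. The 8 of them with 5 or more sets included the chromosome 10 region at 50210001 to 50410000. They also included a chromosome 4 region at 25140001 to 25310000 that reached 6.90 in 6 sets (FDR 0.0018 in the authors' deposited table). Another was a chromosome 7 region at 133300001 to 133470000 that reached 6.73 in 7 sets (FDR 0.0395). These 3 were picked after their values were seen. In windows of 50 kb touching them, DMSO reached 5.17, 6.52 and 4.5 in the order given. Over the midpoint of the chromosome 4 region, DMSO reached 5.24 in a 100 kb window sharing less than 50 kb with the best window.

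Gained windows bordered on signal that was present with DMSO. Of the 809, 774 (95.7%) overlapped a window of another set at 2 or more with DMSO, against 8.33% of the 157653 windows at the floor in both treatments. Among lost windows, 93.5% overlapped a window at 2 or more with PT2399. At the level of regions, 326 of the 329 (99.1%) lay within 100 kb of a DMSO window of 2 or more, and the most remote, on chromosome 9 at 71650001 to 71780000, lay 1.17 Mb away and reached 6.17 (FDR 0.0878 in the authors' deposited table).

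The surroundings were a patchwork of floor and signal in both treatments. At 100 kb before a gained window, 68.0% of windows were at 2 or more with PT2399 and 62.3% with DMSO, and at 100 kb after it 72.3% and 67.7%. At 1 Mb the shares had dropped to 45.0% with PT2399 and 43.7% with DMSO before the window, and 45.5% and 42.3% after it. At 300 kb the median level was 4.96 with PT2399 and 3.67 with DMSO before a gained window, and 5.23 and 4.26 after it. The share at 2 or more was higher with PT2399 at all 20 distances from 100 kb to 1 Mb on either side of gained windows, and at 6 of 20 around lost windows. It was also higher with PT2399 at every distance around windows at the floor in both and around windows at 6 to below 8 in both. At 300 kb before gained windows, the shares were 59.8% with PT2399 and 52.5% with DMSO. They were 6.84% and 6.63% for the floor in both, and 78.8% and 77.4% for 6 to below 8 in both. Of the 20 distances, this one had the widest gap around gained windows. At 200 kb after gained windows, the shares were 63.2% with PT2399 and 60.8% with DMSO. There they were 5.61% and 5.38% for the floor in both, and 83.4% and 83.1% for 6 to below 8 in both. The direction alone was therefore not particular to gained windows. Flanking windows of the same libraries are not independent of the choice, so these shares are a description.

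**Figure D3:**
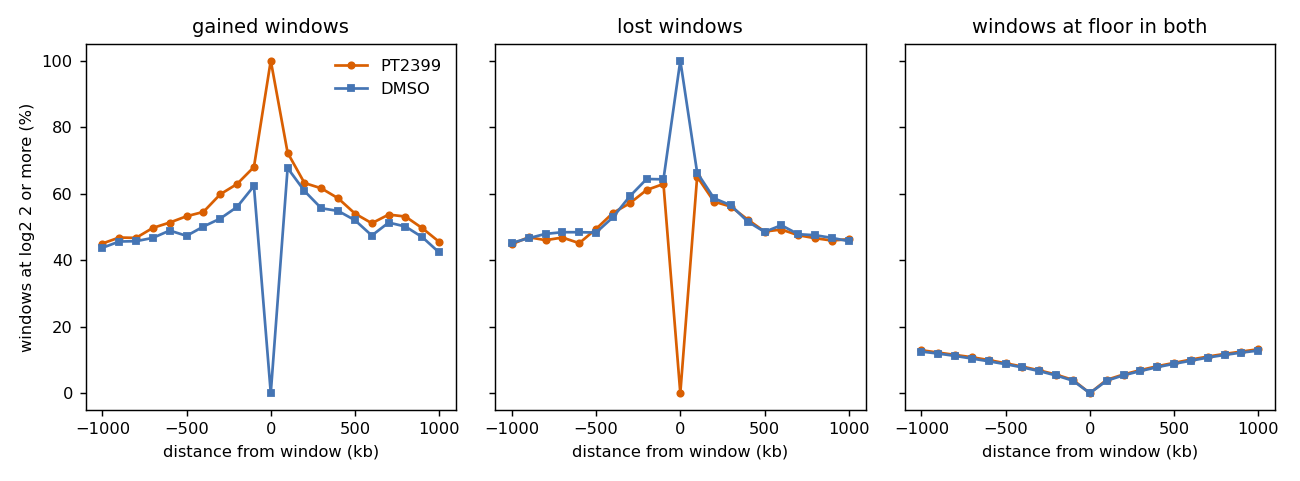
Percent of 100 kb windows at a log2 concentration of 2 or more against distance from a gained window (left), a lost window (middle) and a window at the floor in both treatments (right), for PT2399 in orange and DMSO in blue. Gained windows sit in surroundings where 42.3% to 72.3% of windows at the distances given in the text carry signal, and PT2399 lies above DMSO on both sides of them. PT2399 also lies above DMSO, by less, on both sides of windows at the floor in both.

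In distance to strong SON signal, gained windows stood between the floor and the low measured range. Leaving out chromosome 18, which had none, the nearest window of 9 or more in both treatments lay at a median of 3.07 Mb from gained windows, 2.95 Mb from lost windows, 1.46 Mb from windows at 6 to below 8 in both treatments and 10.0 Mb from windows at the floor in both. Within 1 Mb of such a window lay 27.7% of gained windows, 29.1% of lost windows, 43.5% of windows at 6 to below 8 in both and 4.32% of windows at the floor in both. For merged regions the median was 3.52 Mb for gained and 3.30 Mb for lost ones, and 81 of 329 gained regions (24.6%, Wilson 95% interval 20.3% to 29.6%) and 103 of 354 lost regions (29.1%, 24.6% to 34.0%) lay within 1 Mb. These intervals overlap, and they cover counting error only. The groups were not matched in level, since windows at 6 to below 8 in both had a median of 7.16 with PT2399 and gained windows 6.43. Only 1 gained region overlapped a window of 9 or more, on chromosome 7 at 107700001 to 107830000, and 75 lay more than 10 Mb away. The 5 gained regions of chromosome 18 have no distance, and the farthest regions, up to 176 Mb away, lay on chromosome 4.

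**Figure D4:**
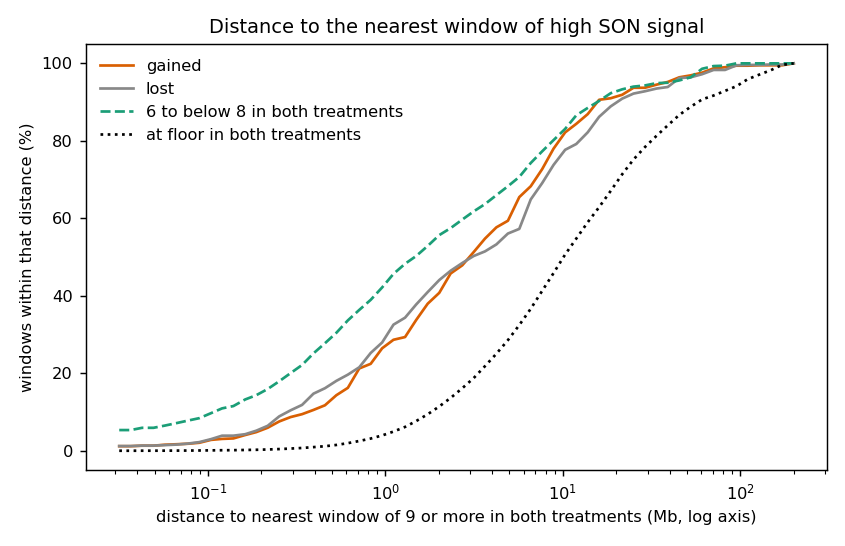
Cumulative percent of 100 kb windows within a given distance (Mb, log axis) of the nearest window of 9 or more in both treatments, for gained windows, lost windows, windows at 6 to below 8 in both and windows at the floor in both. The gained and lost curves run close together, and at their medians of 3.07 and 2.95 Mb they lie between the other curves.

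The gained windows were not spread evenly over the chromosomes. Chromosome 10 held 150 of them (18.5%) and 46 regions, although it held 4.68% of the windows at the DMSO floor, and chromosome 2 held 130 (16.1%) and 49 regions with 9.20% of that floor. As a share of each chromosome's DMSO floor, chromosome 10 had 1.95% gained, chromosome 7 had 0.889%, chromosome 2 had 0.858% and chromosome 8 had 0.564%, against 0.491% over all autosomes. Chromosome 22 had 0 gained windows among 1597 at the DMSO floor, chromosome 19 had 1 and chromosome 17 had 2. Neighbouring windows overlap and share signal, so no test was made between chromosomes.

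Gained and lost windows were out of balance on several chromosomes. Chromosome 10 had 150 gained and 47 lost windows, or 46 gained and 23 lost regions. It had more gained than lost windows in all 9 sets, with 11 to 20 gained and 2 to 9 lost a set. Chromosome 2 had 130 gained and 90 lost, with more gained in 8 of 9 sets. Chromosome 1 had 47 gained and 84 lost, chromosome 14 had 15 and 35, and chromosome 19 had 1 and 13. In all, 8 chromosomes had more gained and 14 more lost windows. Without chromosome 10 there were 659 gained and 743 lost windows. Windows at 2 or more in both treatments on chromosome 10 had a median change of -0.07 (PT2399 minus DMSO), against -0.12 over all autosomes. Only chromosome 18 had a median change above that of chromosome 10, at 0.02, and 17 chromosomes had one below it. Chromosomes 3, 8 and 9 shared the value of -0.07. Of these, chromosomes 3 and 8 had more gained than lost windows, and chromosome 9 had fewer, 23 and 43. Whether the median change bears on the balance of gained and lost windows was not tested.

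**Figure D5:**
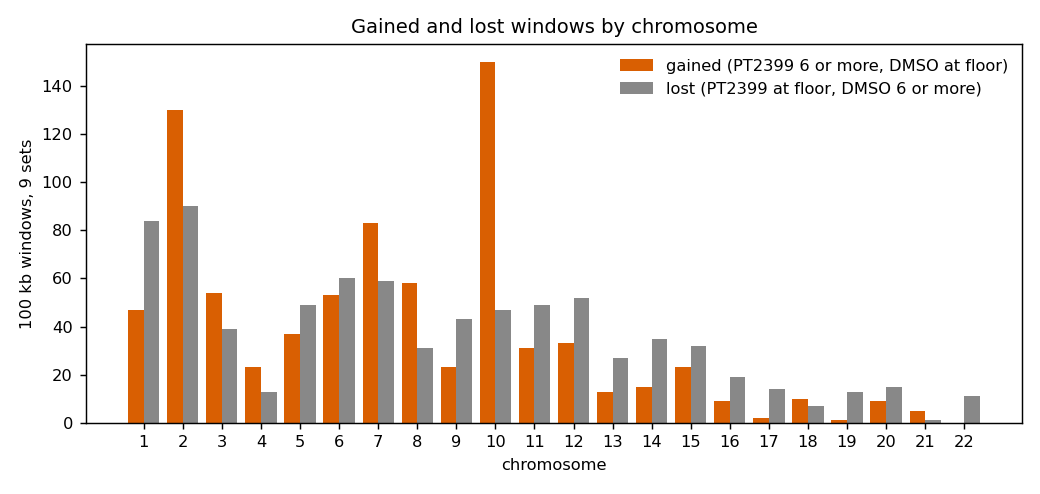
Number of 100 kb windows over the 9 sets that were gained (orange) and lost (grey) on each autosome. Chromosome 10 has 150 gained and 47 lost windows, chromosome 2 has 130 and 90, and chromosome 22 has 0 and 11.

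On chromosome 10 the gained regions ran from 12920001 to 133680000, with 18 starting in the first 50 Mb, 4 between 50 and 90 Mb and 24 beyond 90 Mb. Lost regions numbered 14, 3 and 6 in the same stretches, so the excess of gained regions was largest beyond 90 Mb. Of the 44 gained regions seen in at least 5 sets, 11 lay on chromosome 10 and 9 on chromosome 2, against 3 and 3 of the 31 lost regions of that kind. Of the 150 gained windows of chromosome 10, 55 had an FDR of at most 0.01 and 44 (29.3%) fell in the narrow band. On chromosome 2, 63 of 130 gained windows had such an FDR and 16 (12.3%) fell in the narrow band.

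Many gained regions lay near another gained region. Another gained region lay within 1 Mb of 172 of the 329 (52.3%), with a median gap of 0.755 Mb to the next, and for lost regions these values were 172 of 354 (48.6%) and 1.07 Mb. A gained and a lost region overlapped in 21 places, which is 6.38% of gained and 5.93% of lost regions. Any overlap counted, also one at the edges alone. Whether the same DNA changed direction with the placement of the window was not tested. Among gained windows 7.42% lay within 5 Mb of a chromosome end, against 5.70% of lost windows and 4.04% of windows at the floor in both.

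At 50 kb, windows of the same libraries met the same rule at 174 of the 329 gained regions (52.9%, Wilson 95% interval 47.5% to 58.2%). The share was 35.6% for regions seen in 1 set of 100 kb windows, 62.5% for 2 to 4 sets and 81.8% (36 of 44) for 5 to 9 sets. For lost regions it was 57.1% in all. For a region to count, 1 such 50 kb window touching it was enough. Regions of more sets reached higher PT2399 levels, and longer regions touched more 50 kb windows. The order by sets therefore follows in part from the rule. In 37 gained regions no 50 kb window reached 6 with PT2399, and in 188 some 50 kb window touching the region was at 6 or more with DMSO. In only 1 region were all 50 kb windows below 0 with DMSO. The same minimum of 6 was applied at both window sizes.

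Among named regions, the 50 kb counterpart of lowest FDR was that of chromosome 2 at 11470001 to 11670000. Its best 50 kb window stood at 7.59 with PT2399 and -0.07 with DMSO (FDR 3.42e-06 in the authors' deposited table), and 9 windows of 5 sets met the rule. On chromosome 2 at 109470001 to 109700000, 11 windows of all 9 sets met it and the best stood at 6.78 (FDR 0.0029). On chromosome 7 at 156210001 to 156380000, 11 windows of all 9 sets met it and the best stood at 7.19 (FDR 8.4e-05). On chromosome 10 at 123400001 to 123540000, 10 windows met it, 9 of them at an FDR of at most 0.01, and the best stood at 7.18 (FDR 8.86e-05). The chromosome 10 region at 50210001 to 50410000 had 6 such windows, the best at 6.45 (FDR 0.0109), which misses the threshold. The chromosome 10 region at 13470001 to 13740000, seen in all 9 sets of 100 kb windows, had 4, 1 of them at an FDR of at most 0.01. The chromosome 6 region of 1 window, the chromosome 5 region at 71050001 to 71240000 and the chromosome 21 region at 33780001 to 34050000 had 0.

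Over the autosomes, 831 windows of 50 kb were gained and 984 lost, in 390 and 460 regions. Of the gained windows 208 had an FDR of at most 0.01, where 0.0538% of all 50 kb windows were called higher. Of the 390 gained 50 kb regions, 192 (49.2%) overlapped a gained 100 kb region and 18 overlapped a lost one. Chromosome 10 again had more gained than lost windows, 119 and 59, and so did chromosome 2, with 141 and 101. As a share of the DMSO floor at 50 kb, chromosome 19 with 0.86% (8 windows) came before chromosome 10 with 0.789%, so the first place of chromosome 10 by share was not kept. Chromosome 3 had more gained than lost windows at 100 kb, 54 and 39, and fewer at 50 kb, 28 and 55. Chromosome 22 had 0 gained windows at both sizes.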

How the data were processed

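The submitters' processing notes name the tools Bowtie2, Picard, DiffBind and bedtools, and hg19 as the build. Their versions and settings, the use of the inputs and the scaling between libraries are not given in the sources used. The deposited values are, per the file headers, log2 concentrations for control and treatment and a log2 fold. That fold equals control minus treatment to within 0.01 and was not printed. Each window also carries the authors' p-value and FDR, per the file headers. No value per library was analysed here.

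The 9 sets of 100 kb windows (step 10 kb) and of 50 kb windows (step 5 kb) were read, without chromosomes X and Y. Gained windows were merged where they overlapped by at least 1 bp, and distances run between nearest edges. The narrow band holds windows whose −log10 p lies within 0.15 of a quadratic through the lowest values in level bins of 0.1 below 7. Regions were named by most sets (10), lowest FDR (10), highest level (3) and length (3), which gave 19. Members, rule and comparisons were chosen with earlier results of these data known. The merging and distance steps were tested on simulated windows. Scripts ran in Python 3.11.15 with pandas 2.3.3, numpy 2.4.6, matplotlib 3.10.9 and scipy 1.17.1.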

Additional observations from a re-analysis of the deposited data

Results flagged for a closer look

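Chromosome X lies outside the rule, and it also held windows that left the DMSO floor with PT2399. There, 29 windows of 100 kb in 10 regions had PT2399 at 6 or more, up to 6.74, and DMSO below 0, which is 0.292% of the DMSO floor of that chromosome, and 35 windows were lost.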

How the results depend on the processing

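No paired analysis was possible because the tables hold group values and no value per library, so no replicate could be left out and none blocked. With a PT2399 minimum of 5, 2390 windows in 754 regions were gained, and with 7, 123 in 65, of which 122 windows had an FDR of at most 0.01. A single set gave 82 to 99 gained windows and as many regions, 26 to 36 windows at that FDR and a gained share of 44.6% to 55.9%. Regions seen in at least 3 and 5 sets numbered 110 and 44. At an FDR of 0.001, 0.05 and 0.1, 117, 603 and 767 gained windows passed. The gained share was 54.5% with PT2399 shifted up by the median fold, 45.8% at 50 kb and 47% without chromosome 10, the last an alternative chosen after seeing the data. It therefore lay on either side of equality. The share of gained regions within reach of a high window was 59.3% and 1.82% with high set at 8 and 10, 13.1% and 36.8% within 500 kb and 2 Mb, and 30.9% for regions of at least 3 sets. The 50 kb share was 88.4% and 98.5% with minima of 5 and 4, and 84.5% of regions had DMSO at 6 or more within 100 kb. Most of these settings loosen or tighten the rule itself or use fewer windows, and for the shift, the 50 kb share and chromosome 10 the cause was not tested.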
